A study of Mus musculus with 6 samples.

Results

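The Krüppel-like factors (KLF) are a family of transcription factors that share a zinc finger region at the carboxyl end and bind GC-rich and CACCC-type sequences in promoters. Its genes were followed in LT-HSC of the mouse, the long-term haematopoietic stem cells of the marrow, from which every blood lineage can be rebuilt. The 10 genes described are Klf2, Klf3, Klf4, Klf5, Klf6, Klf7, Klf9, Klf10, Klf12 and Klf13, chosen by name, out of 22180 genes that had a probe set with a single gene symbol. Each gene is read by 1 probe set, the one with the highest mean over the 6 arrays. Klf7 has 2 probe sets to choose from.

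Animals expressing NPMc+, a mutant nucleophosmin protein that is found in the cytoplasm, gave 3 pools, which were set against 3 pools of control animals. By the labels, the 3 pools of a group are biological replicates. All pools were of strain C57/BL6, and LT-HSC were sorted from marrow 4 months after a bone marrow transplant. The labels do not name the allele, promoter or cell type from which NPMc+ was expressed, what the controls carried, or how many animals made up a pool. About 5 ng of RNA was amplified for each array, and by its title the study is about dormant stem cells and how they renew themselves as myeloid leukaemia develops.

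As background, KLF proteins differ in the part outside the zinc fingers. Klf2, Klf4, Klf5, Klf6 and Klf7 act mostly as activators, Klf3 and Klf12 recruit the corepressor CtBP, and Klf9, Klf10 and Klf13 recruit the corepressor Sin3A. In blood, Klf2 is known for keeping lymphocytes resting and for their trafficking, Klf4 for monocyte differentiation, Klf5 for stem cell homing and granulocyte formation, and Klf1 for red cell genes. Several KLF genes are also transcribed early and transiently after cells receive a signal.

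The deposited values are on a log2 scale, so a difference of 1 is a 2-fold change. The mean of each same-numbered NPMc+ and control pair was equal over the 3 pairs for every probe set. In each gene an array that lies high in NPMc+ is therefore mirrored by a low control array, the standard deviation (SD) is the same in both groups, and only the 3 differences within pairs (NPMc+ minus control) carry a spread. Differences were tested with limma with the pair as a block. In these values groups that do not overlap are the same thing as 3 pairs with 1 sign. Array medians lay between 3.90 and 3.99. Levels of different probe sets are not set against each other.

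No KLF gene passed the adjusted threshold. Over all 16635 genes tested with limma, 0 (0%) had an adjusted p under 0.05 and the smallest was 0.0928. At an unadjusted p under 0.05, 1 of the 10 KLF genes was higher in NPMc+ LT-HSC (Klf6) and 0 were lower, where 5.95% of all genes were higher and 3.02% lower. The groups did not overlap in 2 of the 10, Klf6 and Klf10, both higher in NPMc+, where 17.4% of all genes were higher and 12.8% lower without overlap. The 10 differences ran from -0.40 (Klf5) to 0.56 (Klf6), with 6 above 0 and 4 below and a median of 0.05, against a median of 0.03 over all genes tested. Among 10 genes, counts of 1 and 2 are close to these background shares.

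**Figure D1:**
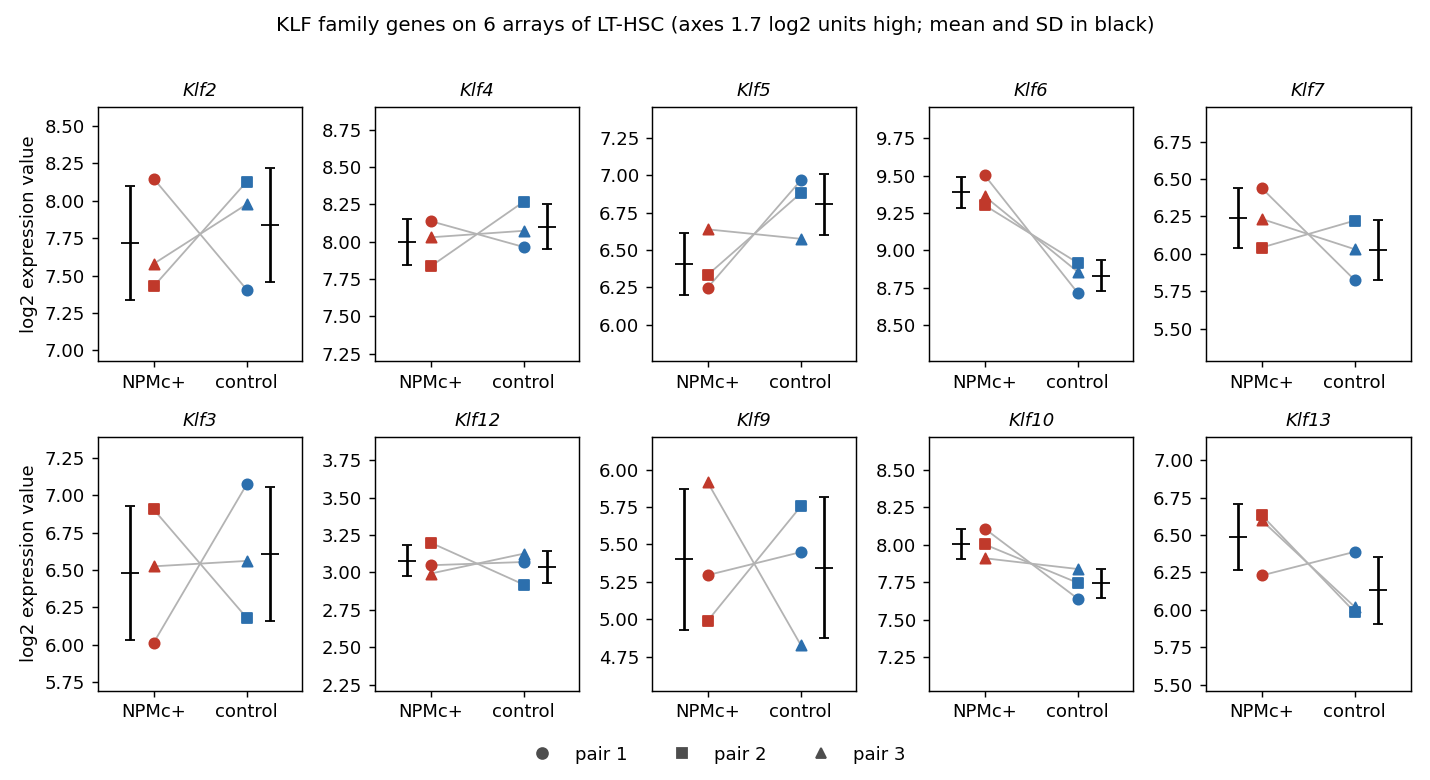
Log2 expression of the 10 KLF genes on each array, with NPMc+ pools on the left in red and control pools on the right in blue. Symbols mark the pair and grey lines join same-numbered arrays; black bars give the mean and SD (n = 3 each). Klf6 and Klf10 are the genes in which every NPMc+ array lies above every control array. The lines of each gene meet midway because its pair means are equal, and in the other genes the pairs slope in both directions.

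Among the activators, Klf6 had the largest difference. Klf6 is a broadly expressed factor induced in tissue injury and by TGF-beta, and the mouse gene is needed for blood formation in the yolk sac. It had 9.50, 9.30 and 9.36 log2 units in NPMc+ pools 1, 2 and 3, against 8.72, 8.92 and 8.86 in control pools 1, 2 and 3. Every NPMc+ pool lay above every control pool. The means were 9.39 ± 0.10 in NPMc+ and 8.83 ± 0.10 in control (SD, n = 3 each). The difference was 0.56 ± 0.19 log2 units (SE), or 1.47-fold, with a 95% interval of 0.114 to 1.004 and an unadjusted p of 0.0213. The limma adjusted p was 0.475, so the difference does not stand out once all genes are counted. An exact sign-flip permutation test over 3 pairs gave a two-sided p of 0.25, which is the smallest that 3 pairs can give. Without pair 1 the difference was 0.44 and the limma unadjusted p 0.129, and without pair 3 it was 0.59 with a limma unadjusted p of 0.0552. In the same limma fit without the block, which counts more degrees of freedom than the 3 pairs hold, the adjusted p was 0.0335.

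The sequence around the Klf6 start site is shown because Klf6 is the KLF gene with the clearest difference, and those of Klf2 and Klf4 because these genes respond to signals too and did not differ beyond their spread. The windows run from 250 bases before to 50 after the start, from RefSeq (GRCm38.p6), 5′ to 3′ on the gene's strand. They are chr13:5861239-5861538 (+) for Klf6, chr8:72318812-72319111 (+) for Klf2 and chr4:55532426-55532725 (-) for Klf4. Capitals mark matches on either strand to GGGCGG, the core of the GC box that SP and KLF factors bind, or to CACCC; neighbouring matches can overlap.
Klf6: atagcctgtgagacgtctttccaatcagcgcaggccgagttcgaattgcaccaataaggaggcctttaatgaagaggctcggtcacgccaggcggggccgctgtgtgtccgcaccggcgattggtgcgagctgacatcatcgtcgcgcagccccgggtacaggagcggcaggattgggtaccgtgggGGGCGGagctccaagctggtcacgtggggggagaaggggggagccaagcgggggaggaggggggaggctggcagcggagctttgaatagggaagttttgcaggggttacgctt
Klf2: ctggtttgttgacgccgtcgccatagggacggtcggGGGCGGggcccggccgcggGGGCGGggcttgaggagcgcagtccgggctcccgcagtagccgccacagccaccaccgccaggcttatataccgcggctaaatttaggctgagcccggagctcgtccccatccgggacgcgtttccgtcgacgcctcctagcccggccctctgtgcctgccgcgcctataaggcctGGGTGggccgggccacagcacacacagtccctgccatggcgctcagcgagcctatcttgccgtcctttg
Klf4: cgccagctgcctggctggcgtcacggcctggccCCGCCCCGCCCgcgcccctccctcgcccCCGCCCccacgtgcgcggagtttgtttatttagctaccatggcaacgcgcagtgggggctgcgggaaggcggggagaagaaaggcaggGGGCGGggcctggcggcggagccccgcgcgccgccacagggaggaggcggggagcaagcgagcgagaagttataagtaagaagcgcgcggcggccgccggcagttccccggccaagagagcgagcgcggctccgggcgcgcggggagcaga

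Of the 10 KLF genes, 8 had a promoter window in the RefSeq table, all but Klf5 and Klf10. GGGCGG occurred in 6 of the 8, against 35.7% of all 32851 windows, and CACCC in 6 of the 8, against 57.5%. The Klf6 window holds 1 GGGCGG and 0 CACCC, that of Klf2 holds 2 and 1, and that of Klf4 holds 4 and 0. Most KLF windows are rich in G and C: 7 of the 8 lay above the median of 52.7% over all windows, with 63.0% in Klf6, 69.3% in Klf2 and 74.3% in Klf4. Motifs of signal-responsive factors were rare over all windows, and likewise in the 8 of KLF genes. TGACGTCA, the cyclic AMP response element, was found in 0 of the 8 and 1.79% of all windows. TGANTCA, in which N is any base, was found in 1 of the 8 (Klf9) and 7.81% of all windows. It takes in the AP-1 site and also sequences that are not AP-1 sites. The CArG box, bound by serum response factor, was found in 0 of the 8 and in 1.63% of all windows. These matches describe letters in a short window and not binding.

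Klf2 and Klf4, which are close relatives, did not differ beyond their spread. Klf2 had 8.15, 7.43 and 7.58 log2 units in NPMc+ pools 1, 2 and 3, against 7.41, 8.13 and 7.98 in control pools. In pair 1 the NPMc+ pool was the higher and in the other pairs the lower, and the groups overlapped. The Klf2 difference was -0.12 ± 0.30 (SE; limma adjusted p 0.941), and its 95% interval of -0.83 to 0.60 takes in changes of either sign. Klf4, a factor of monocyte differentiation and of reprogramming to pluripotency, had 8.14, 7.83 and 8.03 in NPMc+ pools, against 7.96, 8.27 and 8.07 in control pools. These values lay close together in both groups. The difference was -0.10 ± 0.20 (SE), and the 95% interval of -0.58 to 0.38 bounds it more tightly than that of Klf2.

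Klf5 and Klf7 complete the activators. Klf5 had 6.25, 6.33 and 6.64 log2 units in NPMc+ pools 1, 2 and 3, against 6.97, 6.88 and 6.58 in control pools. Pairs 1 and 2 were lower in NPMc+, by 0.72 and 0.55 log2 units, and pair 3 differed by 0.06 the other way. With all pairs the difference was -0.40 ± 0.22 (SE; unadjusted p 0.111, limma adjusted p 0.651). Without pair 3 the Klf5 difference was -0.63 (unadjusted limma p 0.037), without pair 1 it was -0.24 (0.424) and without pair 2 it was -0.33 (0.273). Klf7, known in the mouse from the developing nervous system, had 6.44, 6.04 and 6.23 in NPMc+ pools, against 5.82, 6.22 and 6.03 in control pools. The groups overlapped, and the Klf7 difference was 0.21 ± 0.21 (SE; 95% interval -0.30 to 0.73). It rested on pair 1: without that pair it was 0.0112, and without pair 2 it was 0.41. A second, dimmer Klf7 probe set disagreed with this between pairs, at 1.52, -0.12 and -1.23 in pairs 1, 2 and 3 against 0.62, -0.18 and 0.20.

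The CtBP-binding repressors showed no common shift. Klf3, which acts in B cell and red cell development in the mouse, had 6.01, 6.91 and 6.53 log2 units in NPMc+ pools 1, 2 and 3, against 7.07, 6.18 and 6.56 in control pools. The pairs went opposite ways, by -1.06 in pair 1 and 0.72 in pair 2, with -0.04 in pair 3. The mean difference of -0.12 ± 0.33 (SE; limma adjusted p 0.945) therefore averages unlike pairs. Klf12, a repressor first described at the AP-2alpha gene, had 3.05, 3.20 and 2.99 in NPMc+ pools, against 3.07, 2.92 and 3.13 in control pools. Its mean of 3.06 over the arrays is just above the lowest mean of any gene tested, 3.01. The Klf12 difference was 0.04 ± 0.19 (SE).

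Of the Sin3A-binding repressors, Klf10 was the most uniform. Klf10, also called TGF-beta-inducible early gene, had 8.108, 8.003 and 7.910 log2 units in NPMc+ pools 1, 2 and 3, against 7.640, 7.746 and 7.838 in control pools. The NPMc+ pools were all the higher, but the gap in pair 3 was only 0.07. The difference was 0.27 ± 0.18 (SE), or 1.20-fold, with a 95% interval of -0.18 to 0.71 (unadjusted p 0.196, limma adjusted p 0.738). Without pair 1 it was 0.16. Klf13, a factor of T cells and of red cell formation, had 6.23, 6.63 and 6.60 in NPMc+ pools, against 6.39, 5.99 and 6.02 in control pools. Pairs 2 and 3 were higher in NPMc+ by 0.65 and 0.58, and pair 1 differed by -0.16. The Klf13 difference was 0.36 ± 0.22 (SE; limma adjusted p 0.709), and it was 0.61 without pair 1 and 0.21 without pair 2.

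Klf9, a target of glucocorticoid and thyroid hormone receptors, varied most between pairs. It had 5.29, 4.99 and 5.92 log2 units in NPMc+ pools 1, 2 and 3, against 5.45, 5.75 and 4.83 in control pools. Pair 3 differed by 1.09 and pair 2 by -0.76. The mean difference was 0.06 ± 0.35 (SE; 95% interval -0.78 to 0.89), and quantile normalization turned it to -0.01.

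The KLF genes differed among themselves in how far their pairs spread. The SD of the 3 pair differences was 0.94 log2 units in Klf9, 0.90 in Klf3 and 0.76 in Klf2, above the 90th percentile of all genes tested, 0.72. It was 0.20 in Klf10 and 0.21 in Klf6 and Klf12, below the median of 0.327. The 95% intervals of the other 9 genes all held 0, and 8 of them, all but that of Klf12, also held a change of the size seen in Klf6 in at least 1 direction. A p that misses the threshold here therefore does not show that a KLF gene was unchanged. The mean of Klf12, 3.06, lies just above the lowest of any gene tested, 3.01, so its narrow interval does not show this either.

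**Figure D2:**
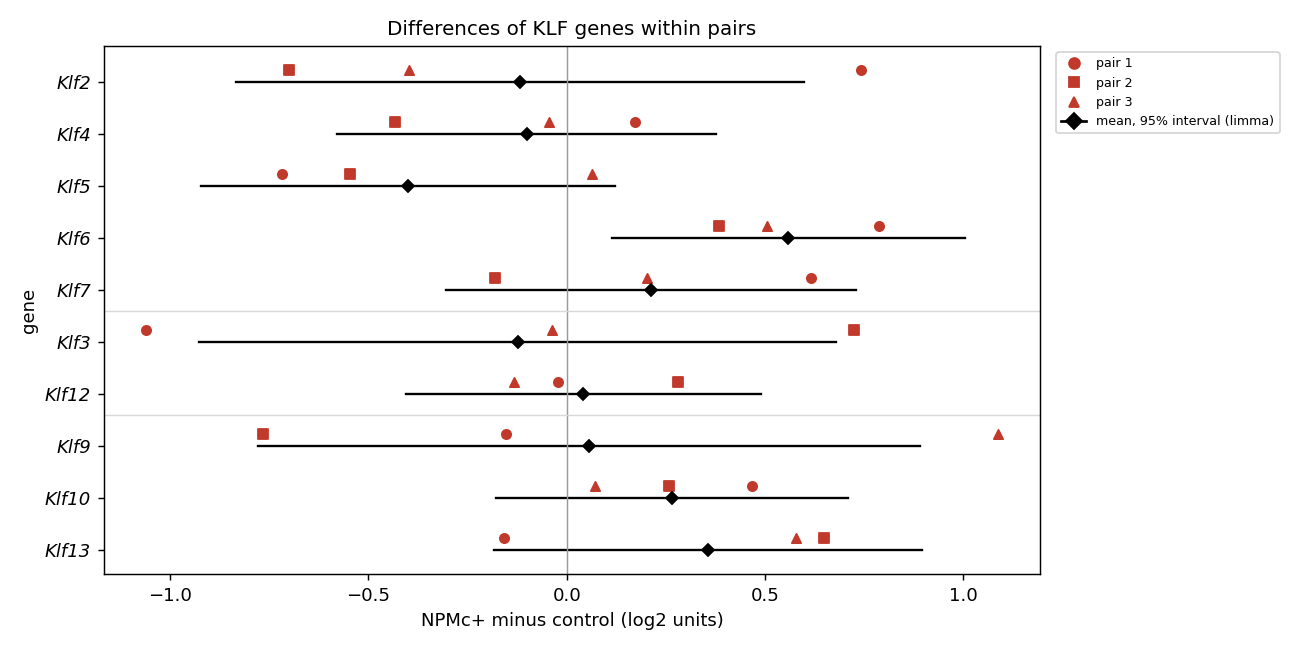
NPMc+ minus control in log2 units for each KLF gene, with the 3 pair differences as red symbols and the mean with its 95% limma interval in black; horizontal lines part the activators, the CtBP-binding and the Sin3A-binding factors. Only the interval of Klf6, 0.114 to 1.004, lies off 0.

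By the 3 pair differences, the genes nearest to Klf6 were Ica1, Pex11g and Etnk1, at Euclidean distances of 0.0878, 0.125 and 0.128 log2 units. Genes with Gm, Rik, Mir, Snor, Olfr or Vmn names were left out of this search. Among the genes kept, 69 lay within 0.3 of Klf6, so nearness over 3 pairs is shared by many genes.

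Markers of other blood cells moved in the same arrays. In bulk RNA, fewer cells of a type and less RNA per cell cannot be told apart. Of LT-HSC markers 11 of 13 tested were above 0, 7 of them at an unadjusted p under 0.05, and the mean log2 value over the list was 6.51 to 6.67 in NPMc+ pools and 6.01 to 6.16 in control pools. All 10 B cell markers, all 13 neutrophil and monocyte markers and all 7 erythroid markers tested were below 0, with 8, 7 and 5 at an unadjusted p under 0.05. T and NK cell markers had 2 higher and 3 lower of 11, and megakaryocyte markers 6 higher and 1 lower of 8. Without pair 1 or without pair 2 the count of lower neutrophil and monocyte markers was 2 and that of higher T and NK cell markers 1, and without pair 3 that of higher megakaryocyte markers was 3. The B cell list averaged 4.62 to 4.71 in NPMc+ pools and 5.87 to 5.96 in control pools, the neutrophil and monocyte list 8.34 to 8.97 in NPMc+ and 9.08 to 9.71 in control, and the erythroid list 5.32 to 5.77 in NPMc+ and 6.10 to 6.54 in control. The share of all genes at that threshold was 5.95% higher and 3.02% lower. The pools also differed in sex-linked transcripts. Xist, which is transcribed from the inactive X, differed by -5.44, -5.39 and 0.48 in pairs 1, 2 and 3. Of the Y-linked genes, Eif2s3y differed by 5.49, 0.36 and -0.79, Kdm5d by 3.48, 1.29 and -0.67 and Uty by 4.68, 0.93 and 0.35. Pairs 1 and 2 were thus alike in Xist and unlike in the Y-linked genes, and the part of these differences in the KLF values was not tested.

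The KLF genes known from those lineages can be set beside these lists pair by pair. Klf5 differed by -0.72, -0.55 and 0.06 in pairs 1, 2 and 3, and the neutrophil and monocyte list had pair medians of -1.02, -1.14 and -0.04. Both were low in NPMc+ in pairs 1 and 2 and near 0 in pair 3. Klf4, the monocyte factor, differed by 0.17, -0.43 and -0.04, without that order. The B cell list had pair medians of -1.28, -1.06 and -1.52, and Klf2 differed by 0.74, -0.70 and -0.40. Klf2 thus had the sign of the B cell list in pairs 2 and 3 and the opposite sign in pair 1. The erythroid list had pair medians of -1.13, -0.46 and -0.77. Klf3, of B cell and red cell development, differed by -1.06, 0.72 and -0.04. It had the sign of both lists in pair 1, the opposite sign in pair 2 and lay near 0 in pair 3. Klf13, also of red cell formation, differed by -0.16, 0.65 and 0.58, opposite in sign to the erythroid list in pairs 2 and 3. The part of these cells in the KLF values was not tested.

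**Figure D3:**
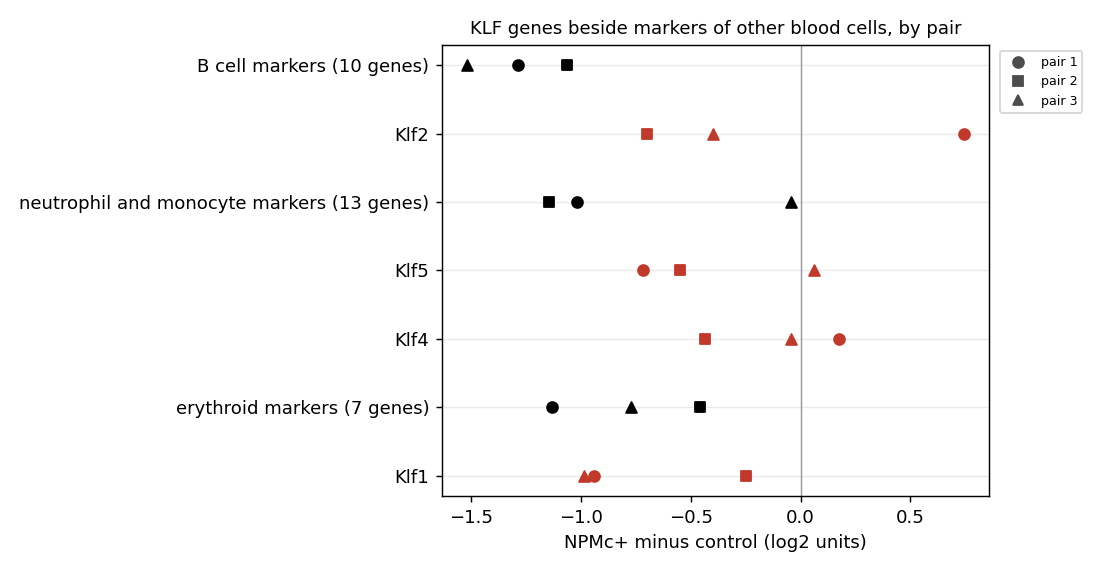
NPMc+ minus control in log2 units by pair, with the median of a marker list in black and single KLF genes in red. Klf5 lies near 0 in pair 3, as does the neutrophil and monocyte list at -0.04, while Klf2 is above 0 in pair 1 and below 0 in pairs 2 and 3, and the B cell list is below -1 in every pair.

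Klf1, the red cell factor of the family, was described with the other KLF and SP genes. It had 5.75, 6.09 and 5.73 log2 units in NPMc+ pools 1, 2 and 3, against 6.69, 6.34 and 6.71 in control pools. All NPMc+ pools lay below all control pools, and the difference of -0.72 ± 0.22 (SE) had an unadjusted limma p of 0.0141. Its pair differences of -0.94, -0.25 and -0.98 stood beside erythroid list medians of -1.13, -0.46 and -0.77, and both were smallest in pair 2. Among the 13 other KLF and SP genes tested, Klf1 was the 1 at an unadjusted limma p under 0.05, where 3.02% of all genes were lower. The median of those 13 genes was 0.01. Without overlap of the groups, 2 of the 13 were higher and 2 lower, where 17.4% of all genes were higher and 12.8% lower. Without pair 1 or without pair 3 the call of Klf1 was lost, at differences of -0.62 and -0.59. Klf8, the third CtBP-binding member, named here after its value was seen, was 0.46 ± 0.19 (SE) with 3 of 3 pairs positive and an unadjusted limma p of 0.0533. Its probe set was dim, with means of 4.22 in NPMc+ and 3.77 in control, near the array medians of 3.90 to 3.99.

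Of 14 genes of cofactors and turnover of the KLF proteins, 10 were above 0, with a median of 0.17, where 54.9% of all genes tested were above 0. At an unadjusted p under 0.05 the count was 1 higher and 0 lower, against shares of 5.95% and 3.02% over all genes. The gene was Kat2b, a histone acetyltransferase, at 0.58 ± 0.20 (SE; unadjusted limma p 0.0234). Its call was lost without pair 2 or without pair 3, at differences of 0.57 and 0.44. The corepressor genes Ctbp2 and Sin3a, named after their values were seen, were 0.38 ± 0.17 and 0.38 ± 0.17 (SE). Each had 3 of 3 pairs positive, with unadjusted limma p-values of 0.0661 and 0.0671. Without overlap of the groups, 6 of the 14 were higher and 0 lower, where 17.4% of all genes were higher and 12.8% lower. Other corepressor genes of the list were mixed: Sin3b was 0.35, Ctbp1 0.21, Hdac1 0.13, Sap30 0.06, Hdac2 -0.06 and Hdac3 -0.165.

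The 12 upstream regulators had a median of 0.13. At an unadjusted p under 0.05 there was 1 higher and 0 lower, beside the same shares of 5.95% and 3.02% over all genes. It was Smad3, a mediator of TGF-beta signals, which had 5.91, 6.36 and 5.87 log2 units in NPMc+ pools 1, 2 and 3, against 5.24, 4.78 and 5.28 in control pools. The groups did not overlap, and the difference was 0.95 ± 0.25 (SE; unadjusted limma p 0.00729). Without pair 2 it was 0.63 (unadjusted limma p 0.0279).

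Genes reported as KLF targets, mostly in other cell types, went both ways. The 15 tested had a median of 0.37, and at an unadjusted p under 0.05 they held 4 higher and 2 lower genes, where 5.95% of all genes were higher and 3.02% lower. Those higher were the cyclin gene Ccnd1 at 0.94 ± 0.32, the cell cycle inhibitor gene Cdkn1a at 0.67 ± 0.18, the TGF-beta inhibitor gene Smad7 at 0.57 ± 0.21 and the kinase gene Pim1 at 0.55 ± 0.19 (SE). Those lower were Lgals3, a galectin gene repressed by Klf3 in the mouse, at -0.76 ± 0.18, and the cyclin gene Ccne1 at -0.58 ± 0.20 (SE). The sizes of some of these values leaned on single pairs. Ccnd1 had pair differences of 0.13, 1.81 and 0.89 and was 0.51 without pair 2 (unadjusted limma p 0.107), and Smad7 was 0.36 without pair 3 (unadjusted limma p 0.19). The calls of Smad7 without pair 1, of Ccne1 without pair 1 and of Pim1 without pair 2 or pair 3 were also lost, while those of Cdkn1a and Lgals3 were kept without any 1 pair. A fit on 2 pairs has fewer residual degrees of freedom, so a call can be lost while the difference holds. Smad7 was 0.68 without pair 1, and Pim1 was 0.54 without pair 3. The list mixes genes that KLF proteins activate and repress. S1pr1, the Klf2 target of lymphocyte exit from tissues, named after its value was seen, had pair differences of -0.02, 0.93 and 0.20 where Klf2 had 0.74, -0.70 and -0.40. This sets 1 picked gene beside Klf2, and no relation between Klf2 and the listed targets was tested. The pair medians of the target list were 0.07, 0.70 and 0.03, so its median rests on pair 2. Over the 54 genes tested in the 4 lists together 6 were higher and 3 lower, against the same shares of all genes; without pair 2 these counts were 3 and 4, and without pair 1 they were 5 and 1.

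**Figure D4:**
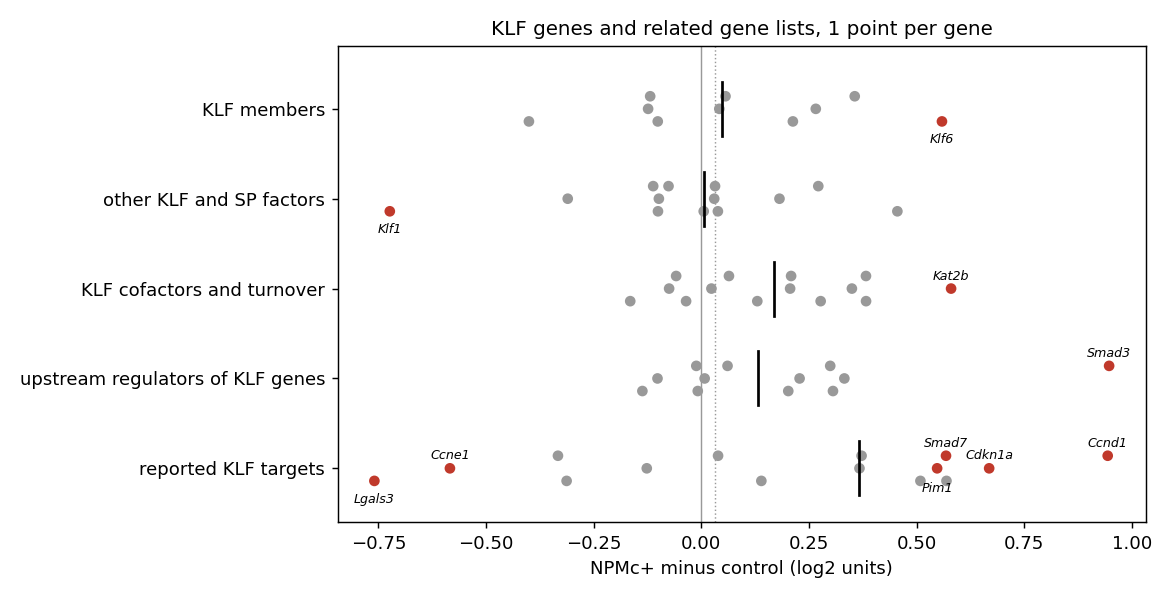
NPMc+ minus control in log2 units for the 10 KLF genes and the 4 related lists, 1 point per gene, with genes at an unadjusted p under 0.05 in red and named; black bars are list medians and the dotted line is the median of all genes tested, 0.03. Most points lie between -0.4 and 0.4, and the reported targets run from Lgals3 at -0.76 to Ccnd1 at 0.94.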

How the data were processed

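RNA of sorted LT-HSC was measured on 6 arrays, 3 NPMc+ and 3 control, and the groups and replicate numbers come from the sample titles. The authors deposited log2 values of 41345 probe sets, made with RMA per the submitters' processing notes. For RMA the version, and for the values what was done afterwards, is not given in the sources that were used. Same-numbered arrays had equal means within 0.001 log2 units in 100% of probe sets (largest range 6.5e-05; at most 0.343% under another pairing), and their deviations from group means correlated at -1, so the replicate number was used as a block.

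Symbols came from a platform annotation listing, used only where a probe set had 1 symbol (23521 probe sets, 22180 genes). Dim genes, below the 25th percentile of the means, were dropped and 16635 were fitted with limma 3.58.1 in R 4.3.3 (files read by data.table, version 1.17.8; lmFit and eBayes, two-sided, 2 residual and 4.537 prior degrees of freedom), with Benjamini-Hochberg adjustment over all of them and a threshold of 0.05. All 10 KLF genes passed the filter. The fit was tested on simulated data. The KLF genes and lists were chosen with earlier results of these data known. The text names all 10, list genes at an unadjusted p under 0.05, or the 2 with the largest difference where there were none, and the 3 genes nearest to a KLF gene at that threshold. Outside this rule it names Klf8, Ctbp2, Sin3a and S1pr1, after their values were seen, the other corepressor genes set beside Ctbp2 and Sin3a, and the sex-linked genes. Alternatives were no block, leaving out each pair, quantile normalization, no filter or one at the 50th percentile, an intensity trend, and the mean of a gene's probe sets. Plots used Python 3.11.15 and matplotlib 3.10.9. No protein sequences were used here. The number of arrays limits the precision.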

Additional observations from a re-analysis of the deposited data

How the results depend on the processing

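The number of KLF genes past each threshold changed with the block and with single pairs, and with none of the other alternatives. Without the replicate block, limma called 828 of all genes at an adjusted p under 0.05, among them 1 KLF gene (Klf6), and at an unadjusted p under 0.05 2 KLF genes were higher and 1 lower; in the 4 related lists together 16 were higher and 6 lower. That fit treats paired arrays as independent and counts more degrees of freedom than the 3 pairs hold. Leaving out each pair in turn gave 0 to 24 genes at an adjusted p under 0.05, none of them a KLF gene, 0 to 1 KLF genes higher and 0 to 1 lower at an unadjusted p under 0.05, and 3 to 5 genes higher and 1 to 4 lower in the 4 lists. With no filter on dim genes 10 list genes were higher. Fits without a pair have fewer residual degrees of freedom than the main fit. The part of single pools and of the filter in these changes was not tested. Klf6, Klf5, Klf7, Klf10 and Klf13 kept their direction under all alternatives run, but not their size: without each pair in turn they ranged from 0.44 to 0.65, -0.63 to -0.24, 0.0112 to 0.409, 0.16 to 0.36 and 0.21 to 0.61. Leaving out a pair reversed the others: the differences ranged from -0.55 to 0.17 in Klf2, -0.55 to 0.34 in Klf3, -0.238 to 0.0646 in Klf4, -0.46 to 0.47 in Klf9 and -0.0774 to 0.129 in Klf12. Quantile normalization also turned Klf9, to -0.0082. Klf12 was not tested under the filter at the 50th percentile. Dim probe sets such as that of Klf12 limit what can be seen.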
